A study of Mus musculus with 2 samples.

Results

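The 10 SR splicing factor genes Srsf1, Srsf2, Srsf3, Srsf4, Srsf5, Srsf6, Srsf7, Srsf10, Srsf11 and Tra2b were examined for N6-methyladenosine (m6A), the methylated adenosine that METTL3 and METTL14 place in mRNA. Their sites are those that lay inside the GENCODE M21 interval of a gene on its own strand in mouse genome build GRCm38. They numbered 164 of the 219409 sites that the cerebellum and cerebrum libraries held together. The libraries came from the cerebellum and the cerebrum of a newborn (postnatal day 0) female F1r mouse, a hybrid with a C57BL/6J mother and a PWK/PhJ father, and were made from poly(A)+ RNA. Both were prepared by GLORI, in which glyoxal and nitrite deaminate unmethylated adenosines so that these are read as guanosine while m6A is still read as adenosine. Sites with a methylation rate over 0.1 and a read count over 8 were listed, but the lists give only chromosome, position and strand. The rate and the depth behind a site are therefore unknown, and an adenosine that is not listed may be unmethylated, unexpressed or too thinly covered. With 1 library per tissue no test between tissues was possible, and each share is given with its 95% Wilson interval, which covers counting error over sites only.

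SR proteins hold RNA recognition motifs and a domain rich in arginine and serine. They bind exonic enhancers and guide the spliceosome to nearby splice sites, and several of them also take part in mRNA export. Their genes control their own output through "poison" exons or retained introns. Inclusion of these can bring in a premature stop codon, which sends the transcript to nonsense-mediated decay (NMD). m6A usually sits in the sequence DRACH (D stands for any base but C, R for a purine and H for any base but G), in long internal exons and around the stop codon, and its nuclear reader YTHDC1 is known to recruit SRSF3 and to keep SRSF10 off the RNA.

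The sites that carry the results are shown first, each read from GRCm38 on the strand of its gene, with the 5-mer in capitals and the listed adenosine at its centre. The first set holds, for each gene, the DRACH site listed in both libraries that lay nearest the stop codon, so that each gene is shown by a site chosen in the same way. Srsf7 had no such site.
Srsf1, chr11:88049608-88049628, + strand: atgattggTGACActttttgt
Srsf2, chr11:116850435-116850455, - strand: ttgtataaAGACTtttcaggt
Srsf3, chr17:29041681-29041701, + strand: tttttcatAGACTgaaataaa
Srsf4, chr4:131901082-131901102, + strand: ccacgctgGAACTgccgagaa
Srsf5, chr12:80949969-80949989, + strand: tggcaattAAACTgtaaataa
Srsf6, chr2:162934783-162934803, + strand: ctataacaGAACActttccta
Srsf10, chr4:135867405-135867425, + strand: ctaaatatGAACAggtttata
Srsf11, chr3:158012003-158012023, - strand: gatatgagTGACTgagcccaa
Tra2b, chr16:22246789-22246809, - strand: ttgtttgtGGACAatattttc

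The second set holds the DRACH sites in sequence that NMD or retained-intron transcripts include and coding isoforms do not. Those in Srsf2 lie in an intron after its stop codon. There were 6 of them in 3 genes.
Srsf2 intron 2, chr11:116851930-116851950, - strand, both libraries: tagcataaAGACTcctggtgt
Srsf2 intron 2, chr11:116851790-116851810, - strand, cerebrum: aatgaaaaTGACTatttcttg
Srsf2 intron 2, chr11:116851593-116851613, - strand, cerebrum: atagagaaAAACAttcagtgc
Srsf2 intron 2, chr11:116851560-116851580, - strand, cerebrum: gctgactgGGACTtcttactc
Srsf7 NMD exon, chr17:80204649-80204669, - strand, cerebellum: ctactactAGACCatgggcca
Srsf11 intron 3, chr3:158024925-158024945, - strand, cerebrum: gtgtgttaGAACAatagacca

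Each of the 10 genes had at least 1 listed site in each library, although no single site of Srsf7 was in both. Among all 21581 coding genes, 41.5% had a site in the cerebellum library and 57.8% in the cerebrum library. A DRACH site listed in both libraries was present in 9 of the 10 SR genes, against 31.7% of coding genes. The cerebellum library listed 66 sites in the SR genes of its 79355, and the cerebrum library 127 of its 188295. The median was 6 sites per SR gene in cerebellum and 12.5 in cerebrum, while coding genes with a site had medians of 4 and 7. The cerebrum list was longer throughout, and its depth is not known. The name of 1 deposited list carried a short form that the study uses for the other tissue, so the labels were checked with marker genes: 8 of 10 hindbrain genes had a site in cerebellum and 5 of 10 in cerebrum, and 4 of 10 forebrain genes had a site in cerebellum and 10 of 10 in cerebrum. GRCm38 held an A at all 164 positions (0 exceptions, interval 0 to 2.29%).

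A site listed in both tissues was nearly always a DRACH site, and a site listed in 1 tissue usually was not. Of the 29 shared sites 26 fitted DRACH (89.7%, 73.6 to 96.4), beside 82.7% of the sites that the whole libraries shared. Of the 37 sites listed in cerebellum only, 10 did (27.0%, 15.4 to 43.0), and of the 98 listed in cerebrum only, 28 did (28.6%, 20.6 to 38.2). The sites of the whole libraries listed in 1 tissue only stood at 30.1% in cerebellum and 34.4% in cerebrum. Over all sites the DRACH share was 54.5% in cerebellum (36 of 66, 42.6 to 66) and 42.5% in cerebrum (54 of 127, 34.3 to 51.2). The whole libraries stood at 62.1% and 46.7%, within those intervals. Read the other way, 26 of the 36 cerebellum DRACH sites were also listed in cerebrum (72.2%, 56.0 to 84.2), and 26 of the 54 cerebrum DRACH sites were also listed in cerebellum (48.1%, 35.4 to 61.1), where the whole libraries had 81.0% and 45.3%. Over sites of any motif the overlap was 29 of 66 (43.9%, 32.6 to 55.9) and 29 of 127 (22.8%, 16.4 to 30.9), against 60.8% and 25.6% in the whole libraries. The cerebellum value of the libraries lies above the interval of the SR genes. Of the non-DRACH sites, 3 of 30 (10%, 3.46 to 25.6) and 3 of 73 (4.11%, 1.41 to 11.4) were listed in both tissues. That share was not computed for the whole libraries. They shared 48241 sites, of which 39903 fitted DRACH, as did 49274 of all 79355 cerebellum sites and 88016 of all 188295 cerebrum sites.

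**Figure D1:**
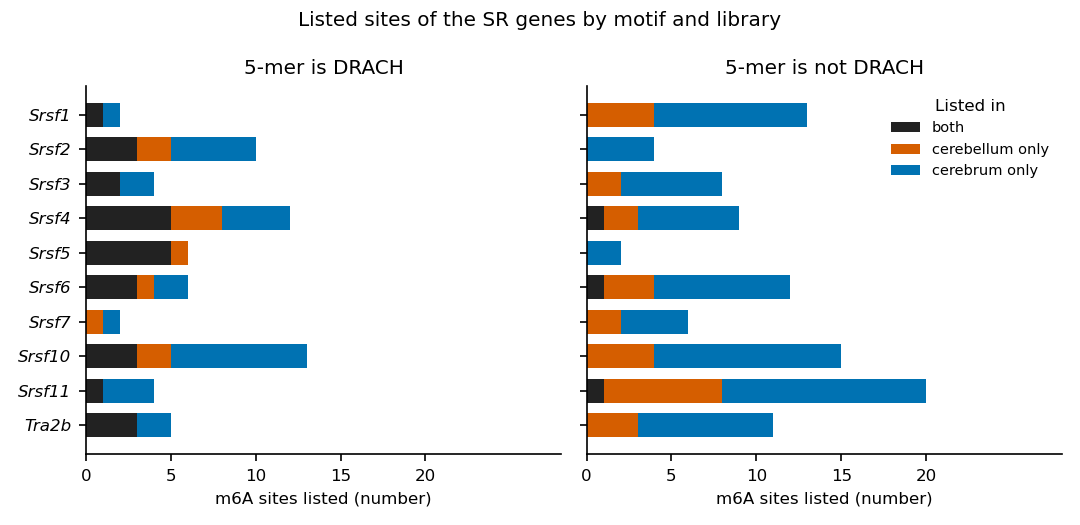
Number of listed m6A sites in each SR gene (bars, in sites) for DRACH 5-mers (left) and other 5-mers (right), coloured by whether a site was listed in both libraries, in cerebellum only or in cerebrum only. The black segments, sites in both libraries, hold 26 sites on the left and 3 on the right.

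The most frequent 5-mers were GAACA and TGACT with 8 sites each, AGACT and GAACT with 7 each, GGACA with 6 and GGACT with 5. Of the 100 non-DRACH sites, 52 differed from DRACH at more than 1 base, and none of those was listed in both tissues. GAT took the place of GAC in 14 sites, of which 1, a GGATT site, was in both libraries. Another site of the same gene lay within 20 nt of 45 of the 164 sites. The same share was not computed for other genes, so it cannot be called a trait of the SR genes.

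On the coding isoform of each gene (the principal isoform of the annotation), 49 of the 103 listed sites fitted DRACH (47.6%, 38.2 to 57.1) and 27 were listed in both tissues. Off it, in other exons and introns, 15 of 61 did (24.6%, 15.5 to 36.7) and 2 were listed in both. By region the 164 sites fell as 2 in the 5′ UTR, 23 in coding sequence and 78 in the 3′ UTR. A further 7 lay in exons of other coding isoforms, 8 in NMD exons, 22 in retained introns, 4 in other transcripts and 20 in introns that no annotated transcript keeps. All 8 sites in NMD exons also lay in annotated retained-intron transcripts, and the order of the classes placed them under NMD. Coding sequence held 13.6% of SR sites in cerebellum (7.34 to 23.9) and 13.4% in cerebrum (8.53 to 20.4). Other coding genes had 30.6% and 27.7% there. The 3′ UTR held 62.1% (50.1 to 72.9) and 48.0% (39.5 to 56.7), against 39.4% and 32.2%. The lengths of these regions in other coding genes were not compared here. More than 200 nt from the stop codon, the SR isoforms held 114 DRACH adenosines in coding sequence and 315 in the 3′ UTR. Other coding genes with a site in each library held 328019 and 303336. How far this goes with the shares of sites was not tested. In other coding genes the DRACH share on the isoform was 75.4% in cerebellum and 63.9% in cerebrum, with a site inside several genes counted once for each of them. The SR genes had 64.0% (32 of 50, 50.1 to 75.9) and 51.2% (41 of 80, 40.5 to 61.9). The cerebrum value of other coding genes lies above the interval of the SR genes, and the cerebellum value lies inside it.

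Most adenosines in a DRACH sequence were not listed. The 10 isoforms held 522 exonic DRACH adenosines, of which 32 were listed in cerebellum (6.13%, 4.38 to 8.53) and 41 in cerebrum (7.85%, 5.84 to 10.5). In other coding genes with a site in both libraries the shares were 5.65% and 9.19%, inside the intervals of the SR genes. Such genes had at least 1 site in each library, not always the same one. Listed adenosines lay almost wholly in the last exon: 46 of the 49 listed in either tissue did, where the last exons held 393 of the 522. Within 100 nt of an exon junction 1 of 128 was listed in cerebellum and 4 of 128 in cerebrum, against 31 and 37 of the 394 farther away. Other coding genes showed the same order, with 1.06% and 2.04% near a junction and 8.38% and 13.4% farther away. The 13.4%, in cerebrum, lies above the interval of the SR genes farther away (9.39%, 6.89 to 12.7). The 1.06%, 2.04% and 8.38% lie inside the matching intervals of the SR genes.

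The share was highest around the stop codon. Within 200 nt of it on either side, 13 of 72 DRACH adenosines of the SR genes were listed in cerebellum (18.1%, 10.9 to 28.5) and 19 of 72 in cerebrum (26.4%, 17.6 to 37.6). Other coding genes had 12.6% and 19.99% there. In the rest of the 3′ UTR 17 of 315 (5.40%, 3.40 to 8.47) and 19 of 315 (6.03%, 3.90 to 9.23) were listed, against 5.59% and 8.92% in other coding genes. In the rest of the coding sequence 2 of 114 were listed in each library (1.75%, 0.482 to 6.17), where other coding genes had 4.40% and 7.42%. The last of these lies above the interval of the SR genes.

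**Figure D2:**
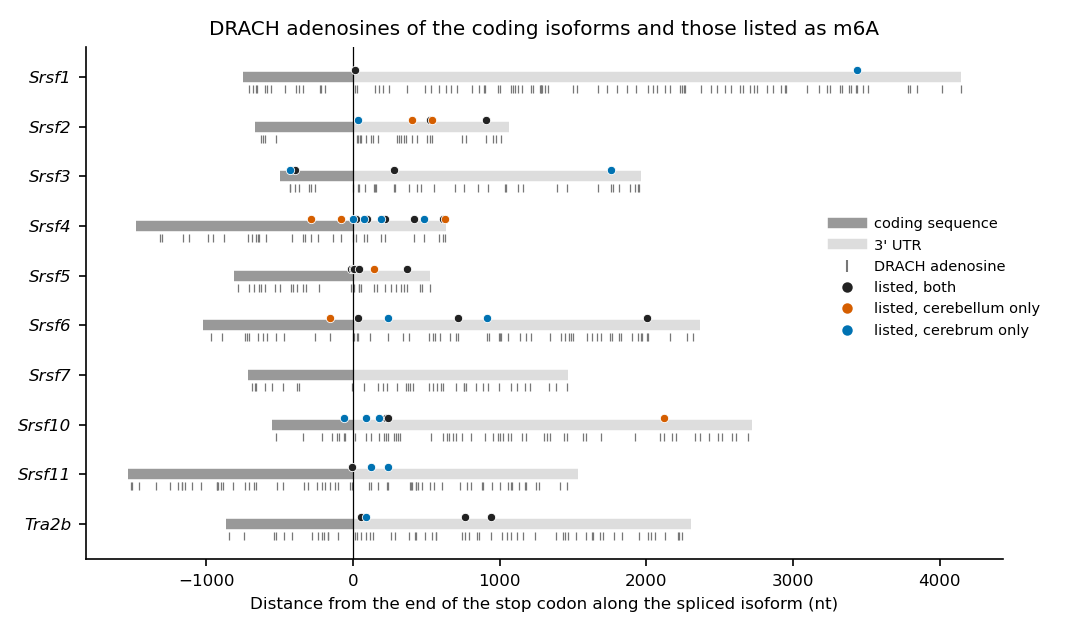
Coding sequence (dark bars) and 3′ UTR (light bars) of the isoform of each SR gene, drawn by distance in nt from the end of the stop codon, with every DRACH adenosine as a tick below and each listed DRACH site as a point above, coloured by library. Points crowd the stretch just after the stop codon in Srsf4 and Srsf5, and Srsf7 has ticks but no point.

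The share ranged widely over the genes. Srsf4 was highest, with 8 of its 31 exonic DRACH adenosines listed in cerebellum (25.8%, 13.7 to 43.2) and 9 in cerebrum (29.0%, 16.1 to 46.6). Srsf5 followed with 6 and 5 of 36 and Srsf2 with 4 and 4 of 29. In between stood Srsf3 with 2 and 4 of 41, Srsf10 with 3 and 5 of 59 and Srsf6 with 4 and 5 of 61, of which Srsf6 was the highest in cerebellum and Srsf3 in cerebrum. Below them were Tra2b with 3 and 4 of 64, and Srsf11 with 1 and 3 of 65. Srsf1 had 1 and 2 of 98 (1.02%, 0.180 to 5.56, and 2.04%, 0.561 to 7.14). Srsf7 had 0 of 38 in both (interval 0 to 9.18). The intervals of Srsf4 lay above those of Srsf1 and Srsf7 in both tissues, and neighbours in the order overlapped.

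**Figure D3:**
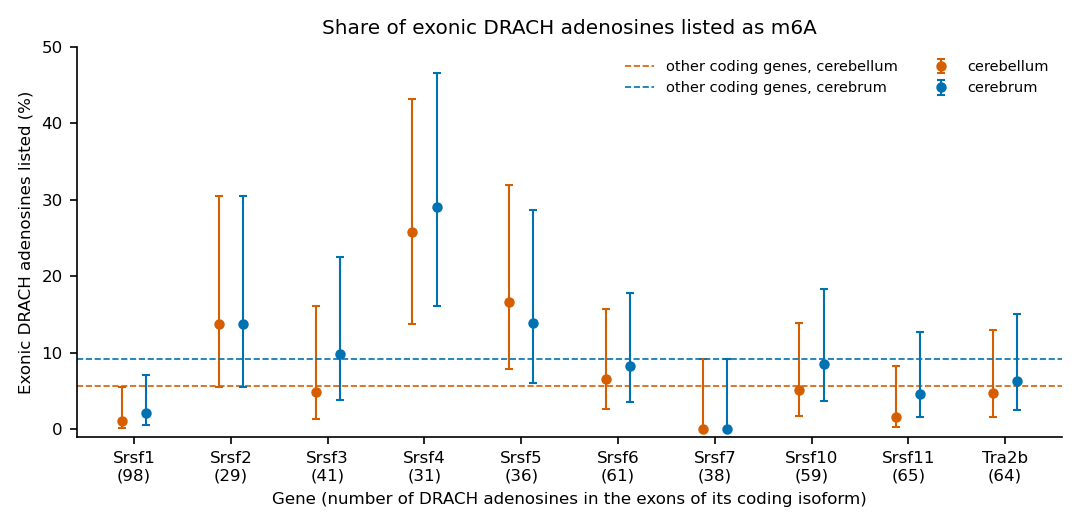
Share of exonic DRACH adenosines listed as m6A (%) in each SR gene, for cerebellum and cerebrum, with 95% Wilson intervals as bars and the share in other coding genes as dashed lines. Srsf4 lies above both lines with its intervals clear of them, Srsf1 lies lowest among the genes above 0, and Srsf7 is at 0.

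Part of this sequence also exists elsewhere in the genome. Pseudogenes made from spliced mRNA can share reads with their source gene, and how reads with several matches were handled is not given in the sources used here. The 41 nt around 24 of the 164 sites had another exact copy in the chromosomes: 11 sites of Srsf10, 5 of Srsf5, 5 of Tra2b and 3 of Srsf3. None of the 34 copies was itself a listed site in either library. Among the 435 exonic DRACH adenosines with no copy, 24 were listed in cerebellum (5.52%, 3.74 to 8.08) and 30 in cerebrum (6.90%, 4.87 to 9.67). Srsf4 and Srsf1 had no copy at any of their sites and kept their shares. Srsf5 fell to 2 of 18 in each library (11.1%, 3.10 to 32.8). All listed DRACH adenosines on the Tra2b isoform had a copy, which left 0 of 43 in each library (interval 0 to 8.20).

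Srsf4, Srsf5 and Srsf6 encode SR proteins with a pair of RNA recognition motifs. Srsf4 (chr4:131873617-131901706, + strand) held 11 sites in cerebellum and 16 in cerebrum, with 5 DRACH sites in both. Its 3′ UTR, only 634 nt long, held 10 DRACH adenosines, of which 6 were listed in cerebellum and 8 in cerebrum. In cerebrum 1 site was the last base of the stop codon itself, and 20 nt after it came a site listed in both tissues. The run from the first base of that stop codon shows both 5-mers in capitals.
Srsf4, chr4:131901070-131901094, + strand: TAACTggctctgccacgctgGAACT

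Srsf4 had further DRACH sites at 98, 217, 419 and 615 nt after the stop codon in both tissues. At 75, 195 and 483 nt sites were listed in cerebrum only, and at 629 nt in cerebellum only. The gene overlaps the antisense gene Gm12992 here, and the sites are given on the Srsf4 strand. Its coding sequence held 21 DRACH adenosines, of which those at -286 and -83 nt from the end of the stop codon were listed in cerebellum only.

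Srsf5 (chr12:80945504-80950507, + strand) had few sites, 6 in cerebellum and 7 in cerebrum, and the largest overlap between tissues: 5 of its 6 DRACH sites were in both. They lay at -13 nt from the end of the stop codon and 1, 11, 39 and 370 nt after it. The first of these is in codon 266. The sixth, 145 nt after the stop codon, was listed in cerebellum only. The first 3 fit in 1 run, printed because it shows how close they lie.
Srsf5, chr12:80949963-80949991, + strand: TGACAgtggcaattAAACTgtaaaTAACT

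These 3 sites and the site at 145 nt had an exact copy of their surroundings on chromosome 4, in or beyond the pseudogene Gm12966, and the sites at 39 and 370 nt did not. Srsf6 (chr2:162931528-162937121, + strand) held 8 and 14 sites. Its DRACH sites in both tissues lay 36, 720 and 2006 nt after the stop codon, along a 3′ UTR of 2364 nt. A site at -157 nt from the end of the stop codon was listed in cerebellum only, and those at 243 and 915 nt in cerebrum only.

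Srsf1 and Srsf2 encode the long-studied factors SF2/ASF and SC35. Srsf1 (chr11:88047373-88053755, + strand) has the longest 3′ UTR of the 10, at 4149 nt with 80 DRACH adenosines, and only 2 of these were listed. The site 12 nt after the stop codon was in both tissues, and the site at 3439 nt was in cerebrum only. Its other 13 sites were not DRACH, and none was in both tissues. Srsf2 (chr11:116849901-116853094, - strand) held 5 sites in cerebellum, all of them DRACH, and 12 in cerebrum, of which 8 were. In its 3′ UTR the DRACH sites at 524 and 910 nt were in both tissues, those at 406 and 541 nt in cerebellum only and that at 35 nt in cerebrum only. It also held the only listed DRACH adenosine in a 5′ UTR of the 10 genes, in cerebrum.

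Srsf3 and Srsf7 encode small SR proteins that act as adaptors for mRNA export. Srsf3 (chr17:29032628-29043373, + strand) held 4 and 10 sites. It had a DRACH site in codon 34 in both tissues and another in codon 24 in cerebrum only, both with copies in pseudogenes. These and the 5′ UTR site of Srsf2 were the 3 listed DRACH adenosines of the isoforms outside a last exon. Its other DRACH sites lay 280 nt after the stop codon (both tissues) and 1762 nt after it (cerebrum). Srsf7 (chr17:80200080-80207307, - strand) held 3 and 5 sites, of which none was in both. Its only DRACH sites were 1 in the NMD exon (cerebellum) and 1 in intron 5 (cerebrum).

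Srsf10 encodes a factor that represses splicing when dephosphorylated, and Srsf11 an SR protein involved in the inclusion of neuronal microexons. Srsf10 (chr4:135855747-135869908, + strand) had the most DRACH sites, 13, of which 5 were listed in cerebellum and 11 in cerebrum. On the isoform the sites 229 and 243 nt after the stop codon were in both tissues, and those at 90 and 175 nt in cerebrum only. A site on the first base of its last exon was listed in cerebrum, and its 5-mer was AGACC both in the genome and across the splice junction. The annotation gives a longer coding form that ends in an earlier exon, and 7 sites lay in exons of that form. Of these 4 were DRACH, all in its 3′ UTR, and the site 666 nt after its stop codon was in both tissues.

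Srsf11 (chr3:158010473-158036639, - strand) held 9 and 17 sites but only 4 DRACH sites. The 1 in both tissues lay at -4 nt from the end of the stop codon, in codon 511, a GAC codon. Sites 124 and 240 nt after the stop codon were listed in cerebrum only. Tra2b (chr16:22244549-22266005, - strand) encodes the SR-like activator TRA2B, which binds GAA-rich enhancers, and held 6 and 13 sites. Its DRACH sites at 57, 767 and 943 nt after the stop codon were in both tissues and that at 92 nt in cerebrum only.

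Of the DRACH adenosines in poison exons, 1 was listed. In 7 of the genes the annotation gave 10 cassette exons of NMD transcripts that the coding isoform lacks, overlapping ones merged, with 52 DRACH adenosines. Of these 1 was listed in cerebellum (1.92%, 0.340 to 10.1) and 0 in cerebrum (interval 0 to 6.88). The cerebellum interval also holds the 6.13% of the exons of the coding isoforms. The cerebrum interval ends below their 7.85% but overlaps the interval of that share, 5.84 to 10.5. Cassette exons have a junction at each end. Within 100 nt of a junction the coding isoforms had only 1 of 128 listed in cerebellum and 4 of 128 in cerebrum. A comparison matched for distance to a junction was not made. Over all sequence of NMD exons outside coding isoforms the SR genes had 1 and 0 of 50 listed, and other coding genes with a site in both libraries had 0.995% and 1.88%, within the intervals of the SR genes (0.354 to 10.5 and 0 to 7.13). The listed adenosine was in the 460 nt exon of Srsf7 shown above. Its position also lies in an annotated retained-intron transcript, and the lists do not tell which transcript carried it. The 456 nt exon of Srsf3 (7 DRACH adenosines), the 3 exons of Srsf4 (207, 184 and 198 nt, with 9, 3 and 4) and the 104 nt exon of Srsf2 (2) held no site of any kind. The 268 nt exon of Srsf6 held 11 DRACH adenosines and 1 non-DRACH site. The 117 nt exon of Srsf11 held 3 non-DRACH sites within a few nt of each other, all in cerebellum, and the 397 nt exon of Tra2b held 1, in cerebellum. How many reads covered these exons is not known.

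Retained introns were listed more sparsely than exons, and most of their listed adenosines lay in 1 intron of Srsf2 in cerebrum. Over the 10 genes, sequence kept by retained-intron transcripts and by no coding or NMD transcript held 371 DRACH adenosines. Of these 1 was listed in cerebellum (0.270%, 0.0476 to 1.51) and 5 in cerebrum (1.35%, 0.577 to 3.12), where other coding genes had 0.172% and 0.461%. Intron 2 of Srsf2 lies 7 nt after its stop codon, so keeping it brings in no premature stop codon. It is kept in 1 annotated transcript and held 25 of the 371, and 4 of the 5 listed. These are 1 of 25 in cerebellum (4.0%, 0.710 to 19.5) and 4 of 25 in cerebrum (16%, 6.40 to 34.7). The 3′ UTR exons of the same gene had 4 and 3 of 24 listed, so that the intron lay below them in cerebellum and beside them in cerebrum. The other retained introns had 0 and 1 of their adenosines listed: those of Srsf3 0 of 89, those of Tra2b 0 of 85, those of Srsf5 0 of 39, and those of Srsf11 0 of 101 in cerebellum and 1 of 101 in cerebrum. Mettl23 runs antisense across Srsf2, and the sites are listed on the Srsf2 strand. In introns with no annotated transcript 0 and 4 of 1417 were listed.

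**Figure D4:**
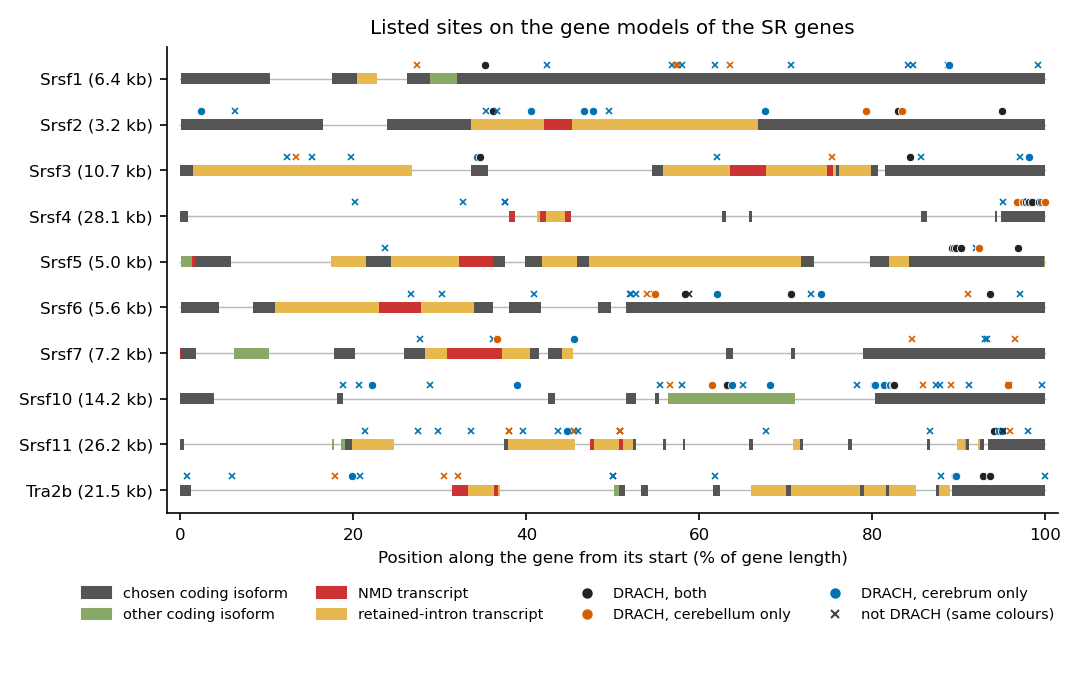
Gene models of the 10 SR genes along the gene from its start (% of gene length, which is given beside each name), with exons of the chosen isoform, of other coding isoforms, of NMD transcripts and of retained-intron transcripts as coloured boxes. Circles above mark DRACH sites and crosses other sites, coloured by library; 4 circles stand over the retained intron of Srsf2 and 1 over the NMD exon of Srsf7.

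By their share of sites these classes weighed more in the SR genes than elsewhere. NMD exons held 6 of 66 sites in cerebellum (9.09%, 4.23 to 18.4) and 2 of 127 in cerebrum (1.57%, 0.433 to 5.56), against 0.283% and 0.394% of sites in other coding genes. Retained introns held 7.58% (3.28 to 16.5) and 14.2% (9.16 to 21.3), against 1.96% and 4.07%. The sequence differed too: NMD exons made up 2.04% of the intervals of the SR genes and 0.105% of those of other coding genes with a site in both libraries, and retained introns 15.6% and 1.58%. Of the 30 sites in these classes, 24 were not DRACH.

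A list of 56 other splicing genes gave the setting. All were found, 51 had a site in cerebellum and 54 in cerebrum, and 41 had a DRACH site in both. In the 50 with a site in both libraries, 6.11% of exonic DRACH adenosines (5.40 to 6.91) were listed in cerebellum and 8.41% (7.58 to 9.32) in cerebrum, beside 6.13% and 7.85% in the 10 SR genes. The other SR and SR-related genes stood at 12.1% (10.4 to 14.0) and 15.7% (13.8 to 17.8), which rested on Son, Srrm2 and Srrm4 with 119 of the 151 and 150 of the 196 listed adenosines. The other 13 genes of that list with a site in both libraries had 4.22% (3.01 to 5.90) and 6.07% (4.58 to 8.0). SR protein kinases and import factors had 5.57% and 7.57%, hnRNP genes, whose proteins often oppose SR proteins, 2.87% and 4.51%, and core spliceosome genes 2.59% and 3.96%. Son, a large nuclear speckle protein, had the most DRACH sites in both tissues with 59, then Srrm2, also of the speckles, with 49, and Srrm4, a neuronal microexon regulator, with 16. Ythdc1, the nuclear m6A reader, had 13, although only 2 of the 57 DRACH adenosines of its isoform were listed in cerebellum and 4 in cerebrum. Hnrnpa0, Hnrnpr and Srpk1 tied for the next place with 10 each.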

How the data were processed

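The authors treated poly(A)+ RNA of 1 cerebellum and 1 cerebrum by GLORI and called sites with GLORI-tools 1.0 on mm10 and on mm10 with PWK bases at SNPs. They kept, per library, the union of sites with a rate over 0.1 and a read count over 8, and deposited genomic positions alone. No rate, read count or depth is therefore analysed here. Samples were grouped by their tissue labels, although 1 file name carries the short form of the other tissue.

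Sites were joined to GENCODE M21 genes (GRCm38, the build of mm10) by position and strand, a different release from that named by the authors. Sites in the poly(A)+ lists were classed by the first fit of chosen coding isoform (lowest APPRIS rank, then longest), other coding isoform, NMD exon, retained intron, other transcript and intron. A site in another gene on the same strand was kept. 5-mers were read from the unspliced genome with pysam 0.24.0, so PWK bases were not read. Shares have Wilson intervals at 95% (scipy 1.17.1), also for a count of 0. Sites of a gene share transcripts and are not independent. Copies were exact matches of 41 nt on either strand. Assignment to 5′ UTR, coding sequence or 3′ UTR was tested on simulated positions in exons of chosen isoforms. The motif rule was tested on a few set 5-mers. The classes outside the chosen isoform were not tested in this way. The sequences named are the DRACH sites in NMD or retained-intron sequence and, per gene, the DRACH site in both libraries nearest the stop codon. For other splicing genes the 5 with most DRACH sites in both were named, ties included. Alternatives covered the gene interval, isoform, motif, overlap and copies.

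The genes and lists were chosen with earlier results of these data known. The class order, the 20 nt limit, the NMD exon definition, the split by stop codon, the search for copies and the comparison with NMD exons and retained introns of other genes were chosen after the sites had been seen.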

Additional observations from a re-analysis of the deposited data

How the results depend on the processing

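Of 40 alternatives over 12 values, 32 stayed within the interval of the value reported (for counts, within 1.5 times) and 8 moved. The values are counts and shares, which have no direction to reverse. Some alternatives had little or no room to move. Reading the centre as A changed nothing because all 164 positions held A, and the longest isoform differed in 1 gene. Restricted to sites in both libraries, the DRACH share rose from 54.5% and 42.5% to 89.7% for both. On exons of the isoform only, it was 51.2% in cerebrum. With DRACH sites only, the share outside the isoform was 11.1% in cerebellum and 24.1% in cerebrum, the 3′ UTR share was 63.0% in cerebrum, and the share listed in both was 72.2% and 48.1%. These follow from which sites were counted. The search for copies, added after seeing the data, moved none of these pooled values past its interval. It took Tra2b to 0 of 43 in both libraries, with an interval of 0 to 8.20 that overlaps those over all its adenosines. No paired analysis was possible because each tissue had 1 library and no test was made. Without rates or read counts, a missing site has no stated depth, and tissue and library cannot be told apart.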
